A study of Mus musculus with 176 samples.

Results

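The genes described here encode the parts of the T cell receptor complex that do not vary between clones, together with the CD4 co-receptor. They are *Trac*, *Trbc1*, *Trbc2*, *Cd3e*, *Cd3d*, *Cd3g*, *Cd247* and *Cd4*, 8 of 53546 gene names in the count table. They were taken by name without use of their values, although earlier results of these data were known. All 8 were listed once, and all 8 passed the minimum of 20 counts per 1000000 reads (cpm) in at least 1 group that was set for comparisons over genes. Single CD4 T cells came from the inguinal and para-aortic lymph nodes of female C57BL/6J mice, an inbred strain with no further genetic change given. The mice had received P6, a peptide of apolipoprotein B, into muscle, first in complete Freund's adjuvant at 7 weeks of age and then in incomplete Freund's adjuvant at 9 weeks, and cells were collected at 11 weeks. P6+ cells bound I-Ab tetramers loaded with P6 in the PE and the APC channel, while P6– cells bound neither and were sorted as antigen-experienced CD44hi CD62L– cells, so there was no group of unimmunized mice. Both groups had been sorted as TCRβ+ CD4+ by surface protein. Of 176 cells, 32 were P6+ and all of these came from 1 mouse. The others were P6–, and the labels do not say how many mice gave them. By the study's methods, most of a sample's volume went to the sort of P6+ cells, and P6– cells were taken from what was left.

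The limits of 500000 reads, 2000 genes and 10% mitochondrial reads were passed by 161 cells, among them all 32 P6+ cells, and 15 P6– cells failed them. The study also set a limit on the mapping rate, which was not used here, and its P6– set was smaller. Some passing P6– cells had thus been left out by the study, whereas it kept all P6+ cells. The part of such cells in the contrasts below was not tested. Reads per passing cell lay between 522188 and 3401372. The median number of genes was 4396 in P6+ and 3432 in passing P6– cells, which are meant from here on. Cell names started with 1 of 8 prefixes, which the labels do not explain, and all P6+ cells shared a prefix with only 11 passing P6– cells, so P6+ cells and their prefix could be compared within that prefix alone. Each group counted as 1 sample and cells were not treated as replicates. No test between groups was therefore made, and the 95% intervals, exact Poisson for reads and exact binomial for shares of cells, cover counting error only. As a measure of spread, the P6– cells were also pooled within each of the 8 prefixes, in pools of 11 to 24 cells.

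An αβ T cell recognises peptide on MHC through its clonal α and β chains, which have almost no cytoplasmic part. Signals are passed on by the CD3 chains, where ε pairs with δ and with γ, and by a dimer of the ζ chain encoded by *Cd247*. The β constant region is encoded by 2 genes in tandem, each behind its own cluster of J segments. Rearrangement to a segment of the *Trbj1* cluster leaves *Trbc1* as the nearest constant gene, and rearrangement to the *Trbj2* cluster deletes *Trbc1* from that chromosome, so a productive β chain is joined to 1 constant gene.

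In the GRCm38 annotation, *Trbc1* lies at chr6:41538218-41539881 and *Trbc2* at chr6:41546730-41548352, both on the plus strand and 6848 bases apart. *Trac* is at chr14:54220521-54224206. *Cd3g*, *Cd3d* and *Cd3e* are neighbours on chromosome 9, at chr9:44969572-44980431, chr9:44981786-44987339 and chr9:44998740-45009627, with 1354 bases between *Cd3g* and *Cd3d*. *Cd247* is at chr1:165788681-165877277 and *Cd4* at chr6:124864692-124888221.

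How well reads can tell the 2 β constant genes apart depends on their sequence, which is shown for this reason. Their coding parts, read from the GENCODE transcripts of GRCm38, were both 518 bases long and 95.6% identical. Over the 375 bases of the first exon they differed at 1 base, written C260A, with the *Trbc1* base first and positions counted from the first base of the transcript. The 30 bases around it lie at chr6:41538463-41538492 for *Trbc1* and chr6:41546975-41547004 for *Trbc2* and are printed 5′ to 3′ with the difference in capitals.
Trbc1 exon 1: tggcacaatcctcgCaaccacttccgctgc
Trbc2 exon 1: tggcacaatcctcgAaaccacttccgctgc

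Over the rest of the coding part there were 22 differences, 84.6% identity. Of these, 18 lay in exons 2 and 3, which encode the connecting piece and most of the membrane span. The spliced exons, at chr6:41539114-41539131 and chr6:41539229-41539335 for *Trbc1* and at chr6:41547610-41547627 and chr6:41547772-41547878 for *Trbc2*, are given with differing bases in capitals.
Trbc1 exons 2 and 3: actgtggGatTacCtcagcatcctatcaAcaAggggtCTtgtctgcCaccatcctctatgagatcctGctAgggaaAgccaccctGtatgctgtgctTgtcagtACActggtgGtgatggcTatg
Trbc2 exons 2 and 3: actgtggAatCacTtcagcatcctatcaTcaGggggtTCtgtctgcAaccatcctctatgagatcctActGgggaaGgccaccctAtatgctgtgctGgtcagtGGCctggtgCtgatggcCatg

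Of all windows of 150 bases, the length of 1 read of each pair, 18.7% of those of *Trbc1* and 20.3% of those of *Trbc2* were found in both transcripts. For windows of 50 bases these were 41.1 and 44%. Reads that lie wholly within such shared sequence fit both genes, and only reads with a single position had been counted, so the counts of both genes may understate their levels.

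*Trac*, the α constant chain, was the member with reads in most cells. In P6+ cells it ranged from 32.2 cpm over a median of 646 to 3180 cpm per cell, and in P6– cells from 0 over 582 to 4216 cpm. All 32 P6+ cells (95% interval 89.1 to 100%) and 82.9% of P6– cells (75.3 to 89%) held 10 or more *Trac* reads, the count used throughout for a gene to be scored as detected. The 2 intervals did not overlap, nor did they once all cells had been thinned to 522192 reads, the total of the shallowest passing cell before rows of the same name were averaged. Intervals of P6+ above those of P6– were found for 6.42% of the 7385 genes with 20 cpm in the higher group (5.69% after thinning), and intervals below for 0.135% (0.176% after thinning). The pooled *Trac* level was nevertheless similar, 824 cpm in P6+ and 851 cpm in P6– cells, a log2 ratio of -0.05 (pseudocount 1 cpm) within the 566 to 1299 cpm of the 8 prefix pools.

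**Figure D1:**
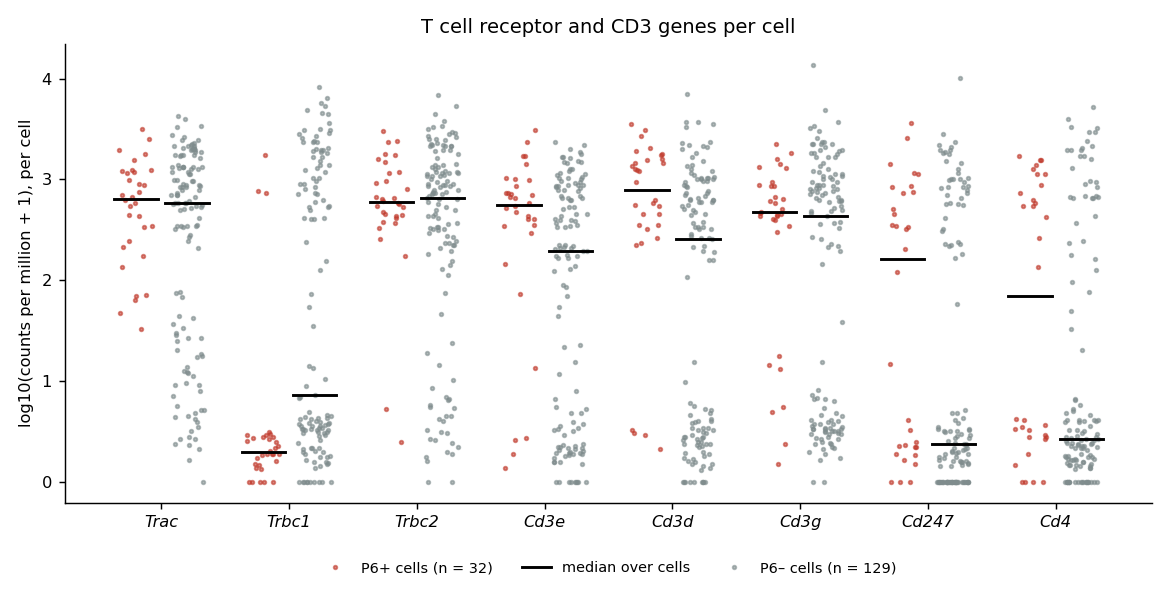
Level of each gene in each cell, as log10 of cpm plus 1, for 32 P6+ (red) and the passing P6– cells (grey), with black bars at the median over cells. For most genes, cells fall into an upper cloud and a lower cloud near 0, and for *Trbc1* only 3 P6+ cells lie in the upper one. For *Trac* no P6+ cell lies below 32.2 cpm, and P6– cells also lie between the clouds.

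Of the β constant genes, *Trbc1* stood far lower in P6+ cells. The pooled *Trbc1* level was 83.7 cpm (95% interval 81.4 to 86.1) in P6+ and 875 cpm (871 to 880) in P6– cells, 10.5-fold lower in P6+ with a log2 ratio of -3.37. It was also below each of the 8 prefix pools, which ranged from 460 to 1375 cpm, as was the case for 2.4% of all genes tested. The lowest of these pools was that of the prefix shared with the P6+ cells, against which the log2 ratio was -2.44.

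The reads of *Trbc1* in P6+ cells came from 3 cells with 2201, 1186 and 1531 reads. The other 29 P6+ cells held 0 to 4 reads of it (median 2), which is 0.937 cpm when pooled, beside 833 cpm of *Trbc2* in the same cells. No P6+ cell lay between these ranges. Among P6– cells, 62 (48.1%, 39.2 to 57%) held 10 or more *Trbc1* reads, against 3 of 32 P6+ cells (9.38%, 1.98 to 25%), with intervals that did not overlap. Within the 8 prefixes, the share of such P6– cells lay between 37.5 and 57.1%. It was 45.5% in the prefix of the P6+ cells.

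*Trbc2* differed less. P6+ cells held from 1.51 cpm over a median of 600 to 3056 cpm, and P6– cells from 0 over 657 to 6895 cpm. Pooled levels were 888 and 1014 cpm, a log2 ratio of -0.19 that lay within the prefix pools of 477 to 1553 cpm. With the P6– cells of the same prefix, the lowest of these pools, the ratio was 0.90. Cells with 10 or more *Trbc2* reads made up 93.8% of P6+ and 79.8% of P6– cells, and these intervals overlapped.

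**Figure D2:**
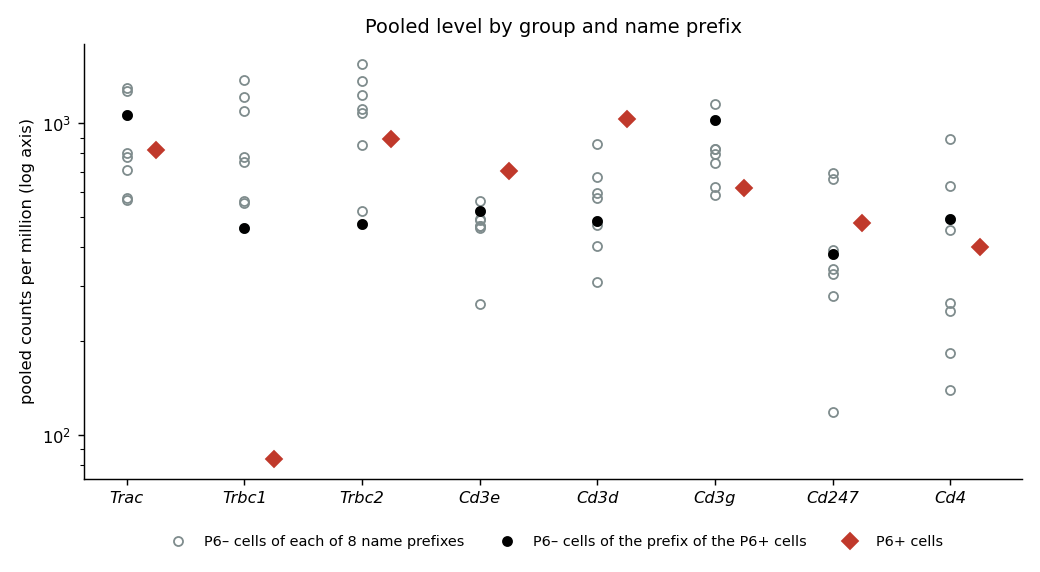
Pooled cpm of each gene (log axis) in the P6– cells of each of the 8 name prefixes (circles, the prefix of the P6+ cells filled black) and in the P6+ cells (red diamonds). The P6+ pool lies below all 8 circles for *Trbc1* and above all 8 for *Cd3e* and *Cd3d*.

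Whether a cell used 1 or both constant genes was scored in cells with 10 or more reads of *Trbc1* and *Trbc2* together, and a gene was called dominant at 90% or more of these reads. Of 30 scored P6+ cells, 27 (90%, 73.5 to 97.9%) had 1 dominant gene, and in all 27 it was *Trbc2*. In none of these cells did *Trbc1* exceed 0.993% of the reads. The remaining 3 cells held both genes, with *Trbc1* at 42.9, 30 and 47.8% of the reads. No P6+ cell was dominated by *Trbc1*, and 2 P6+ cells held too few reads to be scored.

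P6– cells were more mixed. Of the scored cells, 71 (61.2%, 51.7 to 70.1%) had 1 dominant gene, which was *Trbc2* in 54 and *Trbc1* in 17, and 45 cells (38.8%, 29.9 to 48.3%) held both. The interval for 1 dominant gene did not overlap that of the P6+ cells. In the 45 cells with both genes, the *Trbc1* share ranged from 14.8% over a median of 62.3% to 89.4%, and *Trbc1* held the majority in 29 of them. *Trbc2* made up 76.1% (64.5 to 85.4%) of P6– cells with 1 dominant gene and 100% (87.2 to 100%) of such P6+ cells. Cells with *Trbc2* dominant were thus 46.6% (37.2 to 56%) of the scored P6– cells, and 33.3 to 58.3% of them within each prefix.

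The share of P6– cells with 1 dominant gene varied from 33.3 to 81.8% between prefixes, a range that came close to the P6+ value without reaching it. In the prefix of the P6+ cells, 10 P6– cells were scored, 5 with *Trbc2*, 1 with *Trbc1* and 4 with both. The 60% with 1 dominant gene carried an interval of 26.2 to 87.8% and so overlapped that of the P6+ cells. A *Trbc1* share within 5 percentage points of the limit of 90%, at either end, was found in 0 P6+ and 13 P6– cells. With a limit of 80%, P6– cells with 1 dominant gene made up 73.3% (64.3 to 81.1%), an interval that overlapped the unchanged one of P6+ cells.

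**Figure D3:**
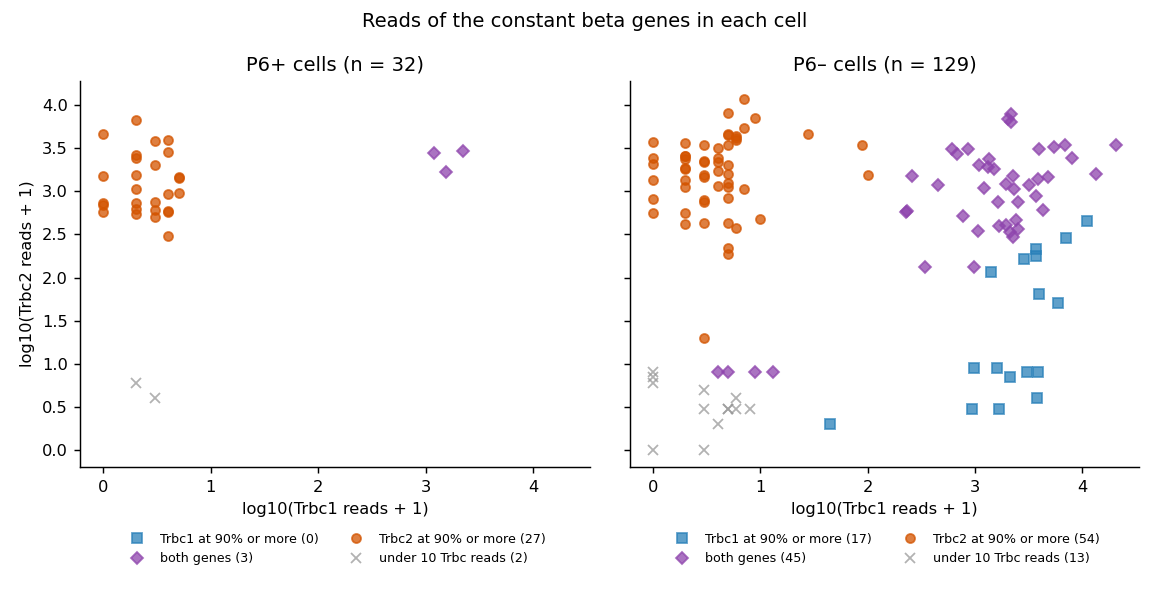
Reads of *Trbc1* (x axis) and *Trbc2* (y axis) in each cell, as log10 of reads plus 1, for P6+ (left) and P6– cells (right), with symbols for cells dominated by *Trbc1*, by *Trbc2*, with both genes, or with under 10 reads of both together. P6+ cells form a column near 0 on the *Trbc1* axis apart from 3 cells, whereas P6– cells occupy all corners.

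J segments, whose reads had no part in choosing these genes or in scoring the constant gene, were then set beside it. A cell was assigned to the *Trbj1* or the *Trbj2* cluster if 90% or more of at least 10 J reads fell on it. Of 48 cells of the *Trbj2* cluster, 44 (91.7%) were dominated by *Trbc2*, 3 held both constant genes and 1 was dominated by *Trbc1*. Of 20 cells of the *Trbj1* cluster, 8 were dominated by *Trbc1*, 11 held both and 1 was dominated by *Trbc2*. The median *Trbc1* share was 0.0921% in cells of the *Trbj2* cluster and 84.3% in cells of the *Trbj1* cluster. In the 22 cells with reads of both clusters, 19 held both constant genes. The constant gene thus followed the J cluster most closely for *Trbj2*, and cells assigned to *Trbj1* often had *Trbc2* reads as well. Reads on a cluster do not show which segment a cell used.

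The P6+ cell scored as *Trbj1* with *Trbc2* dominant had 1071 J reads, but these were spread over *Trbj1-4* (262 reads), *Trbj1-3* (256) and *Trbj1-5* (247), with no segment in the majority. Such spread was not particular to that cell. P6– cells of the *Trbj1* cluster with 3069, 1854, 1005 and 837 J reads also had no majority segment, and all of these held both constant genes. The same was true of P6– cells with 1686 and 1529 J reads, which were dominated by *Trbc1*. The P6– cell scored as *Trbj2* with *Trbc1* dominant held 427 reads of *Trbj2-7* and 19 of *Trbj1-2*, beside 6987 reads of *Trbc1* and 286 of *Trbc2*. By group, 18 of 19 P6+ cells and 26 of 29 P6– cells of the *Trbj2* cluster were dominated by *Trbc2*. Only 1 P6+ cell, the exception above, was of the *Trbj1* cluster, against 19 P6– cells.

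**Figure D4:**
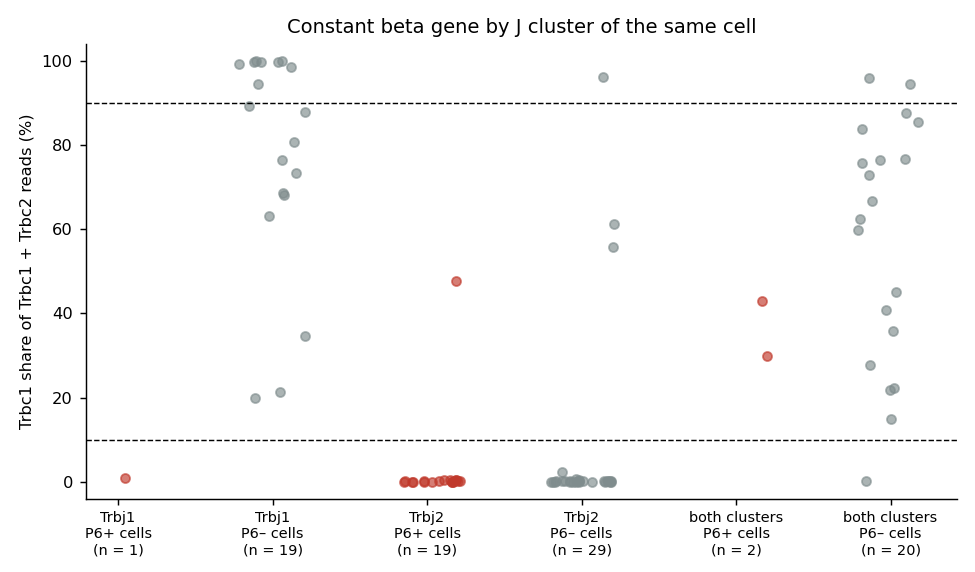
*Trbc1* share of the *Trbc1* and *Trbc2* reads of each cell (percent), by the cluster of its J reads and by group (P6+ red, P6– grey), with dashed lines at 10 and 90%. Nearly all cells of the *Trbj2* cluster lie near 0, cells of the *Trbj1* cluster lie mostly above 60, and cells with both clusters are spread between.

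Cells of a clone share their constant gene, so the P6+ cells are not independent in this respect. A dominant V and J segment could be read in 15 of the scored P6+ cells, which carried 8 V and J pairs, 7 of them with *Trbc2* dominant in every cell and 1 with both constant genes. The most frequent pair, *Trbv13-2* with *Trbj2-4*, was found in 5 cells. The study assembled receptors from the reads and reported a largest expanded clone of 10 P6+ cells with these β segments. The pairs counted here thus understate how many P6+ cells shared a clone. In 45 P6– cells there were 39 pairs, 16 with *Trbc2* dominant in every cell, 7 with *Trbc1* dominant in every cell and 16 that included cells with both. All 16 P6+ cells with 10 or more *Trbv13-2* reads were dominated by *Trbc2*, with *Trbc1* at 0.927 cpm and *Trbc2* at 824 cpm when pooled. The 26 P6– cells with this segment were dominated by *Trbc2* in 14, by *Trbc1* in 4, and held both in 7. How far shared clones account for the low *Trbc1* level was not tested. Among the 16 P6+ cells with fewer *Trbv13-2* reads, 11 of the 14 scored were likewise dominated by *Trbc2* and 3 held both.

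The CD3 chains were detected in a larger share of P6+ than of P6– cells, with separate intervals for *Cd3d* and *Cd3g* only. *Cd3d*, the δ chain, ranged from 1.11 cpm over a median of 785 to 3510 cpm in P6+ cells and from 0 over 254 to 6975 cpm in P6– cells. It was detected in 28 of 32 P6+ (87.5%, 71 to 96.5%) and 73 P6– cells (56.6%, 47.6 to 65.3%), with intervals that did not overlap before or after thinning. Its pooled level was 1030 and 553 cpm, a log2 ratio of 0.90. P6+ cells lay above each of the 8 prefix pools (309 to 855 cpm), which held for 14.2% of all genes tested. Against the P6– cells of the same prefix the log2 ratio was 1.08, where the median over all genes tested was 0.73.

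*Cd3e*, which encodes the ε chain present in both CD3 dimers, ranged from 0.370 cpm over 561 to 3091 cpm in P6+ and from 0 over 195 to 2362 cpm in P6– cells. Pooled levels were 702 and 470 cpm, a log2 ratio of 0.58, and the P6+ pool was again above all 8 prefix pools (262 to 564 cpm). It was detected in 28 P6+ cells and in 82 P6– cells (63.6%, 54.6 to 71.9%), and these intervals overlapped.

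*Cd3g*, the γ chain, went the other way in its pooled level. P6+ cells ranged from 0.486 cpm over a median of 470 to 2223 cpm, and P6– cells from 0 over 428 to 13717 cpm. The pools were 619 and 814 cpm, a log2 ratio of -0.39, and the prefix pools (590 to 1157 cpm) enclosed the P6+ value. Yet *Cd3g* was detected in 28 P6+ cells and 80 P6– cells (62%, 53.1 to 70.4%), so a larger share of P6+ cells had it at a lower level per detected cell, 546 against 870 cpm at the median. The intervals of the shares did not overlap as deposited but did after thinning, when 27 P6+ and 77 P6– cells were left.

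A higher detection rate was general in P6+ cells. Of the 170 genes detected in 50 to 70% of P6– cells, as the 3 CD3 genes were, 150 were detected in a larger share of P6+ cells, by 15.3 percentage points at the median, and 20.6% had a P6+ interval above that of P6–. The difference was 23.9 points for *Cd3e*, 30.9 for *Cd3d* and 25.5 for *Cd3g*. The median number of genes per cell was also higher in P6+ cells, as given above, and the gaps of the 3 CD3 genes were narrower among cells with at least 4000 genes (23 P6+ and 26 P6–). There, *Cd3e* was detected in 87% of P6+ and 80.8% of P6– cells, *Cd3d* in 87% and 69.2%, and *Cd3g* in 95.7% and 76.9%. *Cd247*, by contrast, was detected in 65.2% and 23.1% of these cells, a wider gap than over all cells, and *Trbc1* in 0 and 46.2%. The intervals of the groups overlapped for *Trac*, *Cd247* and each of the 3 CD3 genes, and were separate for *Trbc1*.

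**Figure D5:**
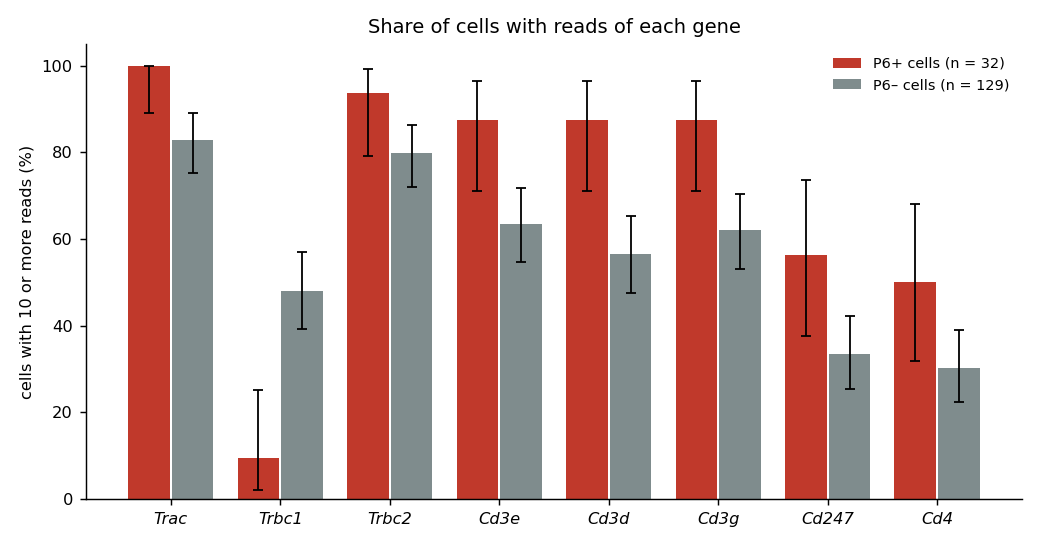
Share of cells with 10 or more reads of each gene (percent) in 32 P6+ (red) and the passing P6– cells (grey), with exact 95% binomial intervals. Bars are higher in P6+ cells for every gene apart from *Trbc1*, and intervals are separate for *Trac*, *Trbc1*, *Cd3d* and *Cd3g*.

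*Cd247*, which encodes the ζ chain, and *Cd4* were detected less often than *Trac*, *Trbc2* and the CD3 genes. *Cd247* was detected in 18 P6+ (56.2%, 37.7 to 73.6%) and 43 P6– cells (33.3%, 25.3 to 42.2%), with pooled levels of 477 and 390 cpm and a log2 ratio of 0.29. A single P6+ cell contributed 24.9% of its reads in that group. *Cd4* was detected in 16 P6+ (50%, 31.9 to 68.1%) and 39 P6– cells (30.2%, 22.5 to 38.9%), and its pools of 401 and 393 cpm gave a log2 ratio of 0.03. For both genes the intervals of the groups overlapped and the prefix pools, 118.3 to 693 cpm for *Cd247* and 139.1 to 892 cpm for *Cd4*, enclosed the P6+ value. Among cells with at least 4000 genes the log2 ratio was 1.83 for *Cd247* and 1.33 for *Cd4*. The median over P6+ cells was 162 cpm for *Cd247* and 69.4 cpm for *Cd4*, against 1.38 and 1.67 cpm over P6– cells, of which under 50% had either gene detected. Where *Cd4* was detected, its median was 810 cpm in P6+ and 841 cpm in P6– cells. Since every cell had been sorted on CD4 protein, cells without detected *Cd4* mRNA are not cells shown to lack CD4.

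Relative to transcript length, levels in P6– cells followed the order *Trbc2* (1465 cpm per kilobase), *Trbc1* (1169), *Trac* (910), *Cd3g* (796), *Cd3d* (323), *Cd3e* (321), *Cd4* (126.4) and *Cd247* (85.5). Neighbours in this order overlapped in their 8 prefix pools, except that *Cd3g* (577 to 1131) lay above *Cd3d* (181 to 500 cpm per kilobase) in every pool. The order in P6+ cells was *Trbc2* (1284 cpm per kilobase), *Trac* (881), *Cd3g* (605), *Cd3d* (603), *Cd3e* (480), *Cd4* (128.99), *Trbc1* (111.8) and *Cd247* (104.7). *Cd3g* and *Cd3d* were thus level in P6+ cells. Lengths were those of all annotated exons, and *Cd247* has the longest of them.

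Over the 8 genes, none was at least 2-fold higher in the P6+ pool and 1, *Trbc1*, was at least 2-fold lower, where 24.3% and 26.7% of all genes tested were. Their median log2 ratio was -0.01, beside 0.01 over all genes tested. With P6– cells of the shared prefix, 1 gene (*Cd3d*) was at least 2-fold higher and 1 (*Trbc1*) lower, beside 47.2% and 25.5% of 6809 genes. The median was then 0.01, beside 0.73.

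The chains were next counted together in the same cell. *Trac* and a β constant gene were both detected in 30 of 32 P6+ (93.8%, 79.2 to 99.2%) and 99 P6– cells (76.7%, 68.5 to 83.7%). All of *Cd3e*, *Cd3d* and *Cd3g* were detected in 23 P6+ (71.9%, 53.3 to 86.3%) and 39 P6– cells (30.2%, 22.5 to 38.9%). None of them was detected in 16 P6– cells and in 0 of 32 P6+ cells, with an exact interval of 0 to 10.9% (3 counts would be a share of 9.38%). The full set of *Trac*, a β constant gene and the 3 CD3 genes was detected in 22 P6+ (68.8%, 50 to 83.9%) and 36 P6– cells (27.9%, 20.4 to 36.5%). After thinning these were 20 and 33 cells, and the intervals still did not overlap. P6+ cells still had more genes after thinning, with a median of 2793.5 against 2258 in P6– cells. Like sets of other genes were not counted. Before thinning, adding *Cd247* to the full set left 13 cells in each group, and adding *Cd4* as well left 7 P6+ and 8 P6– cells.

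Among cells with at least 4000 genes the full set was detected in 73.9% (51.6 to 89.8%) and 53.8% (33.4 to 73.4%), and these intervals overlapped. In the prefix of the P6+ cells it was detected in 4 of 11 P6– cells (36.4%, 10.9 to 69.2%), an interval that overlapped that of the P6+ cells. All 3 CD3 genes were detected in 16.7 to 50% of the P6– cells of each prefix, below the P6+ share in every one.

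Of the P6+ cells, 11 held 10 or more reads of *Foxp3*, the transcription factor of regulatory T cells. *Trac*, *Trbc2* and the 3 CD3 genes were each detected in all 11, and in 17 to 21 of the other 21 P6+ cells. Pooled *Cd3d* was 1531 cpm in the former and 809 cpm in the latter, and *Trbc1* was 0.715 and 120.4 cpm. In P6– cells the order for *Cd3d* was the opposite, 473 cpm in the 19 cells with *Foxp3* and 566 cpm in the others. *Cd3e* was higher with *Foxp3* in both groups, at 994 against 574 cpm in P6+ and 526 against 460 cpm in P6– cells. Both P6– values lay within the *Cd3e* prefix pools of 262 to 564 cpm. *Cd3g* was lower with *Foxp3* in both, at 446 against 696 cpm and 451 against 876 cpm. In these 19 cells, *Cd3e*, *Cd3d* and *Cd3g* were detected in 14, 11 and 12, and *Trbc1* in 8, and in the other P6– cells in 68, 62, 68 and 54. Splitting P6+ cells by 10 or more *Trbv13-2* reads gave the same directions. *Cd3d* was 1254 cpm with that segment and 799 cpm without, *Cd3e* 855 and 544 cpm, and *Cd3g* 422 and 824 cpm. *Foxp3* and the segment were therefore not told apart in P6+ cells. The *Foxp3* pools were small and were not set beside all genes.

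Other genes of the receptor pathway were taken from lists of co-receptors, kinases and phosphatases, adaptors and effectors, and genes of receptor assembly. Of 68 listed genes, 59 reached 20 cpm in the higher group, 8 of them were at least 2-fold higher and 14 at least 2-fold lower in the P6+ pool, and their median log2 ratio was -0.10. These were 13.6% higher and 23.7% lower, beside 24.3% and 26.7% of all genes tested. Among 14 tested kinases and phosphatases 2 were higher and 5 lower (14.3 and 35.7%), and among 27 adaptors and effectors 4 were higher and 6 lower (14.8 and 22.2%).

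At the low end stood *Trat1*, which encodes an adaptor bound to the receptor complex, with 0.270 cpm in P6+ and 185 cpm in P6– cells (log2 ratio -7.19). No P6+ cell and 21 P6– cells held 10 or more *Trat1* reads, and all 8 prefix pools, at 71.1 to 300 cpm, were above the P6+ value. *Txk*, a Tec family kinase, followed with 4.84 and 133.7 cpm (-4.53), and *Nfatc2*, a transcription factor activated through calcineurin, with 9.34 and 57.2 cpm (-2.49). The lowest prefix pool was below the P6+ value for both, at 0.148 cpm for *Txk* and 0 cpm for *Nfatc2*.

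At the high end, *Cd226*, a costimulatory receptor, had 29.7 cpm in P6+ and 4.25 cpm in P6– cells (log2 ratio 2.55), but only 1 P6+ and 2 P6– cells held 10 or more reads. *Lag3*, an inhibitory receptor that binds MHC class II, had 464 and 80.6 cpm (2.51), was detected in 13 of 32 P6+ and 6 P6– cells, and lay above the highest prefix pool of 410 cpm. *Rasgrp1*, an activator of Ras, had 262 and 79.5 cpm (1.71), and *Csk*, the kinase that restrains Lck, 272 and 84.3 cpm (1.68). The P6+ values of these last 2 genes were below the highest prefix pools, 272 and 288 cpm.

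Markers of other lineages were few in the counts apart from the B cell gene *Ighm*. *Cd8a* and *Trdc* were detected in no cell of either group, and at most 3 cells held 1 to 9 reads of them. *Cd8b1* was detected in 2 P6– cells, with up to 2315 reads, and both held α and β constant chain reads. The γ constant genes *Trgc1*, *Trgc2* and *Trgc4*, which are the Tcrg-C1, Tcrg-C2 and Tcrg-C4 genes, were detected together in 1 P6– cell, with 21, 3271 and 669 reads beside 11034 reads of *Trbc1* and 1037 of *Trac*. None of these genes was detected in P6+ cells. Of 7 B cell markers, *Ighm* was detected in 14 P6+ and 30 P6– cells, *Cd79b* in 2 P6+ cells and *Igkc* in 2 P6+ and 1 P6– cells, while *Ms4a1*, *Cd79a* and *Pax5* were detected in none. The summed level of these 7 markers ranged from 0 to 7238 cpm in P6+ and from 0 to 7611 cpm in P6– cells, and was 1056 and 549 cpm when pooled. At least 1 of them was detected in 15 P6+ and 30 P6– cells, and at least 2 in 3 and 1 cells. Their part in the results above was not tested. The 7 myeloid and 4 erythroid markers were detected in no cell, and of 4 NK cell markers *Klrk1* was detected in 1 and *Eomes* in 2 P6– cells.

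The label of αβ T cells held for most cells. The summed level of the 7 receptor and CD3 genes was 2081 to 9003 cpm per P6+ cell and 13.8 to 13747 cpm per P6– cell, and all 32 P6+ and 91.5% of P6– cells had at least 2 of them detected. In 3 P6– cells none of the 8 genes was detected, which held 2626, 4258 and 3990 genes at 852106, 645808 and 522188 reads, against a median of 1500457 reads in P6– cells. The marker lists of CD8, B, myeloid and NK cells each summed to at most 6.19 cpm in these 3 cells.

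Levels of the 8 genes varied from cell to cell with little relation to each other. Over the P6+ or the P6– cells, Spearman's rho between any 2 of them lay between -0.26 and 0.33. Among 341 genes detected in at least 50% of P6– cells, those most like a member reached a rho of at most 0.36, for *Cd3d* with *Ppp1ca* (0.13 in P6+ cells). With the P6+ value second, the most alike was *Sqstm1* for *Trac* (0.31 and -0.14), *Zc3hav1* for *Trbc1* (0.30 and 0.61), *Rplp1* for *Trbc2* (0.25 and -0.17), *Eif5a* for *Cd3e* (0.34 and 0.04), *Actb* for *Cd3g* (0.31 and -0.28), *Rpl27a* for *Cd247* (0.24 and -0.17) and *Elf1* for *Cd4* (0.25 and 0.24). In P6+ cells 4 of the 8 pairs thus had the opposite sign. Such values in sparse counts of cells that share depth and library are a description only.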

How the data were processed

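Smart-Seq2, which amplifies full-length cDNA and uses no molecular identifiers, was run on single CD4 T cells. The authors mapped the reads with STAR 2.6.0a to GRCm38 with Ensembl annotation, counted uniquely mapped reads per gene, and deposited raw counts of 176 cells with no filter or normalization. The submitters' notes also name FastQC 0.11.7 and SAMtools 0.1.19. Whether counting used strand is not given in the sources used here.

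From the deposited counts, rows of the same gene name (81 names, none of the 8 genes) were averaged, and cells with at least 500000 reads, 2000 genes and under 10% mitochondrial reads were kept, all 32 P6+ and 129 of 144 P6– cells. The tetramer sign deposited for each cell matched its label. The study also set a minimum for the mapping rate, which was not used here, so its P6– set is smaller. Its P6+ set held all 32 cells. No doublet caller was run, because cells were sorted 1 per well. No 2 cells had identical counts. Levels in cpm are the summed counts of a group over its summed reads, and log2 ratios took a pseudocount of 1 cpm. Thinning drew reads without replacement to 522192 per cell, the lowest total over all rows, and left out no cell. Background shares were taken over the 7385 genes with 20 cpm in the higher group. Intervals are at 95%, and a count of 0 was taken to allow 3. Each group was 1 sample, so no test was run. Exons of *Cd3e* overlap Gm48719, and those of *Cd247* overlap Gm16565 and *Pou2f1*, so some of their reads may have gone uncounted.

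The genes and lists were chosen with earlier results of these data known. Named genes were the 8 genes, the 4 highest and 4 lowest log2 ratios of the pathway lists, the CD8 and γδ markers, *Trbv13-2*, and the genes of highest Spearman rho with each member, of which the first is given. Results for some of these genes are not reported here. Other markers, *Foxp3* and the J segments of exceptional cells were named beside them. Gene positions and transcripts came from GENCODE M21. Versions were Python 3.11.15, pandas 2.3.3, numpy 2.4.6 and scipy 1.17.1. As alternatives, the pooled sums were scaled by edgeR 4.0.16 (TMM) or DESeq2 1.42.0 (median of ratios). The scripts were tested on simulated data. Alternatives changed the cell filter, the P6– cells compared, depth, pooling, normalization, pseudocount and the read and dominance limits. Leaving out cells with CD8 or γδ genes was added after seeing the data.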

Additional observations from a re-analysis of the deposited data

Results flagged for a closer look

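Among the 8 prefix pools of P6– cells, *Cd3e* in prefix 9 stood apart from the others, at 262 cpm, with a gap to the next pool of 0.66 of the whole range. This was the only such pool among the 8 genes, where chance flags about 1 in 20 groups. The P6+ pool was above the other 7 pools as well. Reads of the receptor genes were also found in the 15 P6– cells that had failed the limits on quality and entered only the alternative without limits on cells. Of these, 9 held 10 or more reads of *Trbc1* and *Trbc2* together, 4 with *Trbc1* dominant, 1 with *Trbc2* dominant and 4 with both. *Trac* was detected in 1 of the 15 cells.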

How the results depend on the processing

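No paired analysis was possible because each group counted as 1 sample and the numbers of the cells were only names. With at least 4000 genes per cell, the log2 ratio of *Trbc1* was -8.895, as no P6+ cell with *Trbc1* detected was left, the median log2 ratio of the 8 genes was 0.54, 2 genes (*Cd247* and *Cd4*) were at least 2-fold higher, 100% of scored P6+ cells had 1 dominant β constant gene, and 53.8% of P6– cells had the full receptor set. The median and shares over all genes were not taken under this limit, so these calls have no background beside them. With P6– cells of the shared prefix only, the *Trbc1* ratio was -2.44 and 1 gene was at least 2-fold higher. With the median over cells in place of pooling, the *Trbc1* ratio was -1.90, the median of the 8 genes 0.83 and 4 genes were at least 2-fold higher, and without the cell holding most reads in each group the *Trbc1* ratio was -4.02. For the median over cells, too, no share over all genes was taken to set beside the 4 genes. Calling a gene dominant at 80% or at 99% gave 73.3% and 48.3% of P6– cells with 1 dominant gene. With at least 50 J reads, 73.3% of cells of the *Trbj2* cluster were dominated by *Trbc2*. Scoring a gene from 1 read put the full set in 100% of P6+ and 84.5% of P6– cells. The cause of these shifts was not tested, apart from those that follow from the cells left out. Leaving out each prefix of P6– cells in turn gave 0 to 1 genes at least 2-fold higher, the 1 being *Cd3d* without prefix 4, and *Trbc1* ratios of -3.48 to -3.23. Thinning, both other normalizations, other pseudocounts and leaving out the 3 cells with CD8 or γδ genes moved none of the main values beyond their interval or spread. Without a limit on low genes, 10.4% of 26035 genes were at least 2-fold higher and 16% at least 2-fold lower.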
